A study of Arabidopsis thaliana with 24 samples.

Results

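The aquaporin family of Arabidopsis thaliana was followed in dissected hypocotyls treated with picloram, a synthetic auxin. The family was taken by locus name as a list of 35 genes, with 13 plasma membrane intrinsic proteins (PIPs), 10 tonoplast intrinsic proteins (TIPs), 9 NOD26-like intrinsic proteins (NIPs) and 3 small basic intrinsic proteins (SIPs). All 35 had a row on both chips, out of 30361 loci in experiment “a” and 32627 loci in experiment “b”. Splice forms brought the family to 40 of 37118 transcripts in “b”, and for a locus with several forms the one with the lowest suffix was reported. Symbols follow the family's usual nomenclature, and the locus identifier that the files carry is given at the first mention or used in place of the symbol. In the RefSeq annotation of TAIR10.1 the members lay on 5 chromosomes.

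All hypocotyls came from 5-day-old seedlings in the Col-0 background, grown in long days and moved to 5 µM picloram or to its solvent DMSO early in the light period. Experiment “a” held wild type after 2 h or 30 min on picloram and after the same times on DMSO, with about 400 hypocotyls pooled per replicate and amplified RNA. Per the labels every picloram sample of “a” carried the dye Cy3 and every DMSO sample Cy5. A dye effect and a treatment effect therefore cannot be told apart within “a”. Experiment “b” held afb5-5 (insertion line SALK_110643, in an auxin receptor F-box gene) and wild type, each after 2 h on picloram or DMSO, with about 700 hypocotyls per replicate, unamplified RNA and a single dye. Each group had 3 biological replicates.

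Aquaporins are membrane channels for water and, in many members, for small uncharged solutes. PIPs carry water across the plasma membrane and TIPs across the vacuolar membrane, and both serve the water uptake of expanding cells. Many NIPs pass boric acid, other metalloid acids or glycerol, and SIPs reside in the endoplasmic reticulum. The comparisons ask whether auxin altered the transcript levels of these channels within the first 2 h of treatment, and whether a change depended on the receptor gene AFB5.

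Changes are log2 differences between group means, from 1 linear model per experiment in limma. A gene was called at an FDR under 0.05 over all transcripts of its chip, and every p-value termed adjusted is a Benjamini-Hochberg value of that model. Values per sample are deposited intensities in arbitrary units. In “a” the tests, and any statement that groups did or did not overlap, rest on the log2 values after quantile normalization.

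The known auxin target GH3.3 registered the treatment at 2 h in wild type. GH3.3, an enzyme that conjugates auxin to amino acids, had 62513, 53817 and 57863 units on picloram and 6212, 5513 and 8790 on DMSO at 2 h in “a”, and 14411, 20159 and 18132 on picloram and 1796, 3001 and 2446 on DMSO in wild type of “b”. Its change was 3.01 at 2 h in “a” (adjusted p = 0.00963) and 2.88 in wild type of “b” (adjusted p = 0.000334). In afb5-5 it was 1.41 (SE 0.28, unadjusted p = 0.000311), with each picloram sample above each DMSO sample. It was not called there, where 0% of all transcripts were. The afb5-5 response of GH3.3 minus that of wild type was -1.48 (SE 0.39, adjusted p = 0.412) and was not called either. The AFB5 signal was 5768 to 9168 in afb5-5 and 6014 to 9129 in wild type on picloram, and 8017 to 9686 in afb5-5 and 10632 to 12101 in wild type on DMSO. The position of its probes relative to the insertion is not known here, so this signal does not check the mutant label. Of 4 shoot apex markers, KNAT1, which stems also express, stood at a percentile of 97.9 of all transcripts in “a”. STM stood at 40.0, CLV3 at 28.8 and the stem cell gene WUS at 9.82. In “b” the percentiles were 98.3 for KNAT1, 10.3 for STM, 33.5 for CLV3 and 16.9 for WUS. Array medians were 869 to 1497 in “a” and 512 to 528 in “b”.

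Most of the bright members were PIPs. In “a” 14 of the 35 aquaporins were in the top 5% of transcripts by mean signal, 9 of them PIPs, and in “b” 10 were, 6 of them PIPs. The median percentile on the chip was 99.4 for PIPs, 85.0 for SIPs, 46.3 for TIPs and 45.1 for NIPs in “a”. In “b” it was 92.7 for PIPs, 79.2 for SIPs, 35.8 for TIPs and 34.2 for NIPs. These are orders of signal and not of RNA amount, since probe sets differ in affinity.

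The brightest locus of “a” was TIP2;1 (AT3G16240), a main water channel of the vacuole, with 54044 to 65146 units over the 12 samples. The highest value of any transcript in “a” was 65326, so this gene stood just under the top of the scale there, and what a ceiling would do to its measured change was not tested. In “b”, where the highest value was 44356, it had 8897 to 15921 units and came after PIP2;6 (AT2G39010) at 10571 to 15354. The third brightest locus of “b”, and the second of “a”, was TIP1;2 (AT3G26520), another vacuolar water channel.

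The dimmest members of “a” were TIP1;3, TIP5;1 and NIP4;1, all known from pollen, with medians of 69.1, 77.5 and 55.1 units. They were the only members in the lowest 25% of the chip of “a”. The lowest 25% in “b” held 2 members, TIP2;3 and the lowest form of PIP1;4. The percentiles of the loci in “a” and “b” had a Spearman rho of 0.74 over 35 loci, and of 0.87 with the brightest form of each locus in “b”, as a description across genes. Neighbours in the order of signal overlapped over the 12 samples in 34 of 34 pairs in “a” and in 33 of 34 pairs in “b”.

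**Figure D1:**
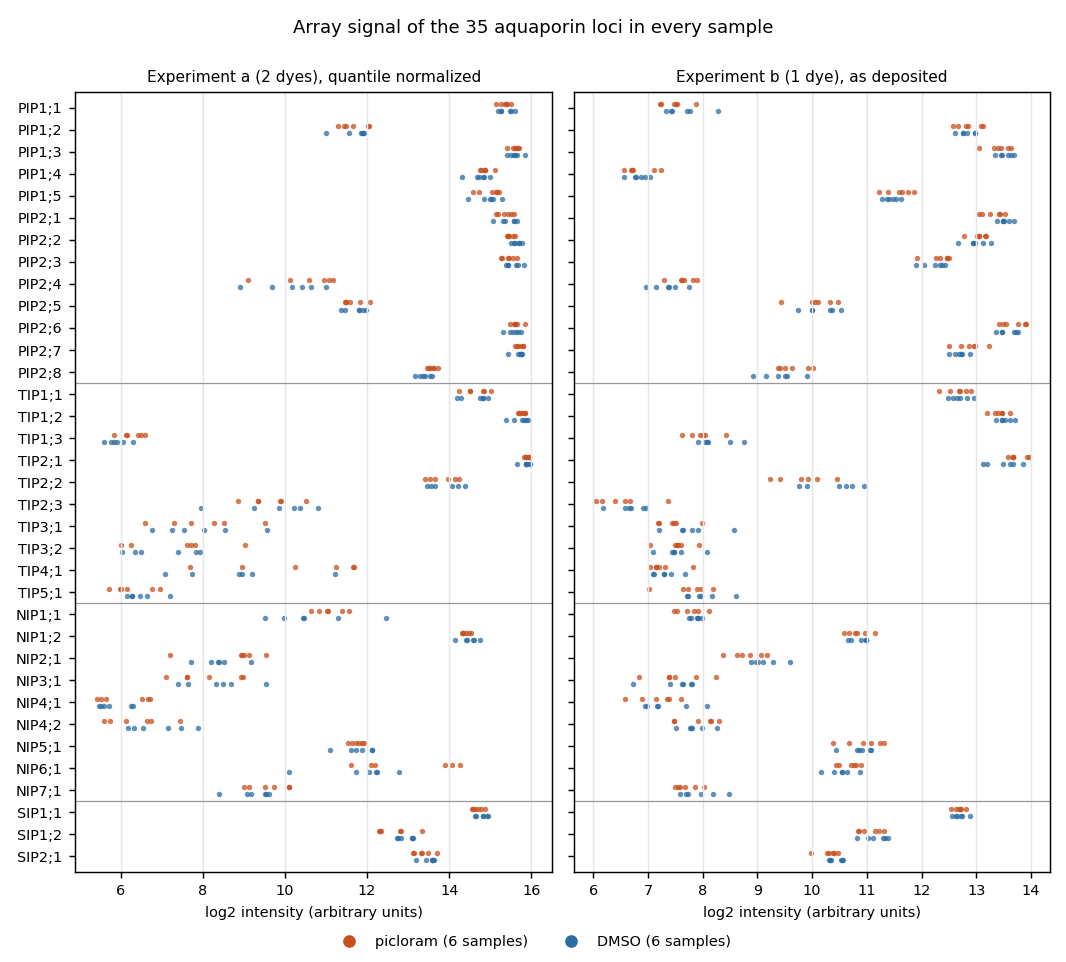
Log2 intensity (arbitrary units) of each of the 35 aquaporins in every sample, with experiment “a” on the left after quantile normalization and experiment “b” on the right as deposited. Each point is a sample, colored by treatment (6 picloram and 6 DMSO samples per experiment, both times or both genotypes together). Most PIPs sit at the bright end of both panels, and most NIPs are dimmer and spread more widely, above all in “a”.

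The spread over samples was unequal among the subfamilies. The range of a locus over the 12 samples had a median of 0.57 log2 units for PIPs and 2.29 for NIPs in “a”, and of 0.65 for PIPs and 0.94 for NIPs in “b”. The widest range was 4.61, for TIP4;1 in “a”. Intervals on the changes are therefore short for most PIPs and long for the dim TIPs and NIPs.

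Of the 35 aquaporins, 1 was called at 2 h in “a” and it was higher with picloram, where 11.4% of all transcripts were called, 5.53% higher and 5.84% lower. None of the 35 was called at 2 h in wild type of “b”, where 2.17% of all transcripts were called, 1.71% higher and 0.458% lower. An unadjusted p under 0.05 was reached by 3 members in “a”, against 25.9% of all transcripts, and by 3 members in “b”, against 14%. The median change over the members was 0.04 in “a”, against -0.01 over all transcripts, and -0.06 in “b”, against -0.03. In bulk tissue, a change in cell types present and a change in RNA per cell cannot be told apart.

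The gene called was NIP6;1 (AT1G80760), a boric acid channel known for passing boron to young shoot tissues. It had 15274, 16708 and 19153 units after 2 h on picloram in “a”, against 3711, 4280 and 4857 on DMSO. The lowest picloram sample was far above the highest DMSO sample. Its change was 1.90 (SE 0.50, adjusted p = 0.0325), or 3.73-fold with a 95% interval of 1.75 to 7.95. Between samples with the same replicate number the log2 differences were 1.85, 1.84 and 2.00.

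The call depended on every sample at 2 h. Without any one of those 6 samples the change was 1.80 to 1.98 and the adjusted p 0.0695 to 0.104. In these fits 4.79% to 8.83% of all transcripts were called, against 11.4% in the main fit, so calls were lost over the whole chip too. The replicate SD of this gene was 0.18 log2 units on picloram and 0.11 on DMSO at 2 h, and 0.32 on picloram and 1.35 on DMSO at 30 min, and all 4 groups entered the error of the model. In a fit to the 2 h samples alone the adjusted p was 0.00175. With the replicate number as a block in the 12-sample fit it was 0.0367.

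At 30 min, with the same dyes, AT1G80760 had 3289, 3803 and 5806 units on picloram and 3701, 6614 and 1316 on DMSO. The groups overlapped, and the change was 0.43 (SE 0.50, adjusted p = 0.911), or -0.29 without DMSO replicate 3. The response at 2 h minus that at 30 min was 1.47 (SE 0.70, adjusted p = 0.334), which did not pass the threshold.

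In “b” the same locus had 1439, 1738 and 1671 units on picloram and 1140, 1870 and 1502 on DMSO in afb5-5. In wild type it had 1387, 1794 and 1902 on picloram and 1355, 1598 and 1501 on DMSO. Picloram and DMSO samples overlapped in both genotypes. The change was 0.13 in afb5-5 (95% interval -0.29 to 0.55) and 0.18 in wild type (-0.24 to 0.60, adjusted p = 0.687), against an interval of 0.81 to 2.99 in “a”. A difference between the experiments, which also differ in dye layout, RNA amplification and chip, was not tested.

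**Figure D2:**
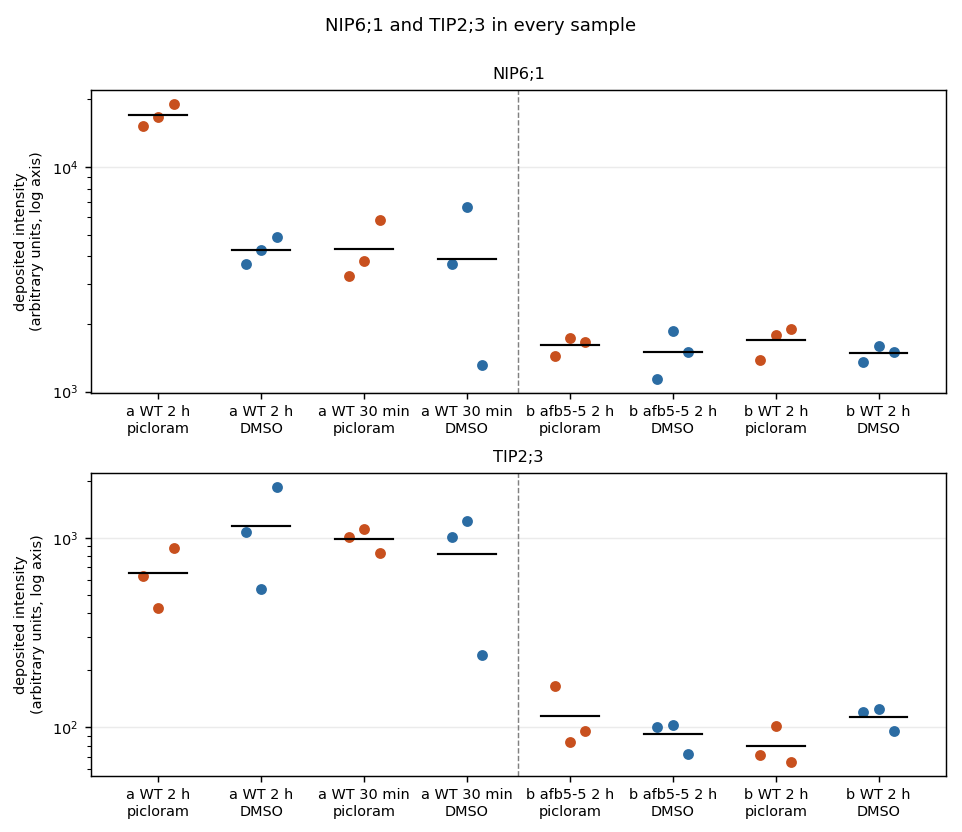
Deposited intensity (arbitrary units, log axis) of NIP6;1 (top) and TIP2;3 (bottom) in each sample, by experiment, genotype, time and treatment. Points are the 3 replicates of a group, the black line is their arithmetic mean, and color marks the treatment. The first gene reached 15274 to 19153 units on picloram at 2 h in “a”, and the second was lower on average on picloram than on DMSO at 2 h in wild type of both experiments.

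TIP2;3 (AT5G47450), a vacuolar channel for water and ammonia, was the only member with a change of at least 0.5 in size and the same sign at 2 h in both experiments. In “a” it had 632, 427 and 888 units on picloram and 1077, 539 and 1860 on DMSO, a change of -0.72 (SE 0.60, adjusted p = 0.505). In wild type of “b” it had 72, 102 and 66 on picloram and 120, 125 and 96 on DMSO, a change of -0.53 (SE 0.26, adjusted p = 0.392). The groups overlapped in both experiments, and the gene was dim in “b”, at a percentile of 17.2. Neither change was called.

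Between samples with the same replicate number, AT5G47450 differed by -0.88, -0.38 and -0.90 in “a”, so it was lower on picloram in each pair. With the replicate number as a block in a fit to the 2 groups alone it was called in both experiments, with an adjusted p of 0.0324 in “a” and 0.0365 in “b”. That fit called 19.4% of all transcripts in “a” and 16.1% in “b”. In afb5-5 it had 165, 84 and 95 units on picloram and 101, 103 and 73 on DMSO, which overlapped. The afb5-5 response minus that of wild type was 0.80 (SE 0.37, unadjusted p = 0.053, adjusted p = 1). At 30 min in “a” its change was 0.52 (adjusted p = 0.909), or -0.20 without DMSO replicate 3.

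The sign of the change at 2 h was the same in “a” and in wild type of “b” for 18 of the 35 aquaporins, 9 above 0 in both and 9 below 0 in both. That is 51.4% of the family, against 56.1% of the 30197 loci on both chips. The experiments share no samples. Members named from here on were chosen after their values were seen.

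**Figure D3:**
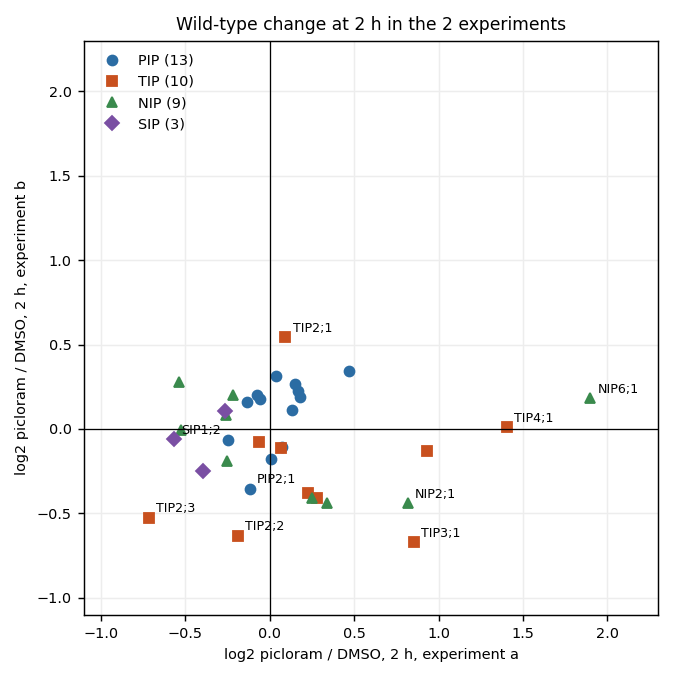
Log2 change with picloram at 2 h in wild type for the 35 aquaporins, with experiment “a” on the x axis and experiment “b” on the y axis, and a marker for each subfamily. The called NIP lies far to the right at 1.90 in “a” and close to 0 in “b”, and the members are spread over all 4 quadrants.

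At 2 h the changes of the PIPs ran from -0.25 to 0.47 in “a” and from -0.35 to 0.34 in wild type of “b”. Of the 13 PIPs 0 were called in either, where 11.4% of all transcripts were called in “a” and 2.17% in “b”. The 95% interval lay within 1 log2 unit of 0 for 12 of the 13 PIPs in “a”, against 61.8% of all transcripts, and for 13 of 13 in wild type of “b”, against 77.8%. Over the whole family such intervals were found for 23 of 35 members in “a” and 29 of 35 in “b”. A change of 2-fold or more was thus outside the interval of nearly every PIP, while for 12 of the 35 members of the family in “a” it was not. The 7 PIPs in the top 1% of “a” had medians of 42369 to 54384 units, where the highest value of any transcript was 65326. A 2-fold rise would have passed that value, so the intervals of “a” cannot exclude such a rise for these 7.

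PIP2;1 (AT3G53420), a major root and shoot water channel whose activity phosphorylation controls, had 8516, 9688 and 8755 units on picloram in wild type of “b”, against 10588, 12452 and 11435 on DMSO. The groups did not overlap, but the change of -0.35 was not called (SE 0.13, unadjusted p = 0.0165, adjusted p = 0.236). In afb5-5 it had 11114, 10950 and 11832 units on picloram and 11426, 11625 and 13193 on DMSO, a change of -0.09. On picloram every afb5-5 sample was above every wild-type sample, by 0.33 on average (SE 0.13, adjusted p = 0.412). In “a” the change at 2 h was -0.12 and the groups overlapped.

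Other bright PIPs lay on both sides of 0 in “b”. PIP2;7 (AT4G35100), another plasma membrane water channel, had 9584, 7483 and 7966 units on picloram and 7573, 5771 and 6855 on DMSO in wild type, a change of 0.31 (SE 0.16, adjusted p = 0.412), and 0.04 in “a”. PIP2;2 and PIP2;3, which are adjacent genes on chromosome 2, had changes of 0.16 and 0.20 in wild type of “b” and of -0.14 and -0.08 at 2 h in “a”. Whether probes of such close relatives share signal was not tested. Counted over the subfamily, 9 of 13 PIPs were above 0 in wild type of “b” and 8 of 13 in “a”. Over all transcripts these shares were 46.5% in “b” and 49.4% in “a”.

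Splice forms were measured apart for 4 PIP1 genes in “b”. The lowest form of PIP1;1 (AT3G61430) had a percentile of 30.1 and its second form one of 90.3, with changes in wild type of -0.18 and -0.45 (adjusted p = 0.764 and 0.336). The second form had 2641, 3356 and 3618 units on picloram and 3434, 5316 and 4436 on DMSO, which overlapped. For AT4G00430 the percentiles were 20.3 and 87.1 and the changes 0.23 and 0.27. The 3 forms of AT2G45960 changed by 0.18, 0.58 and 0.07, and the 2 forms of AT1G01620 by -0.11 and 0.13. None was called, and taking the brightest form of each locus left 0 aquaporins called in each comparison of “b”.

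**Figure D4:**
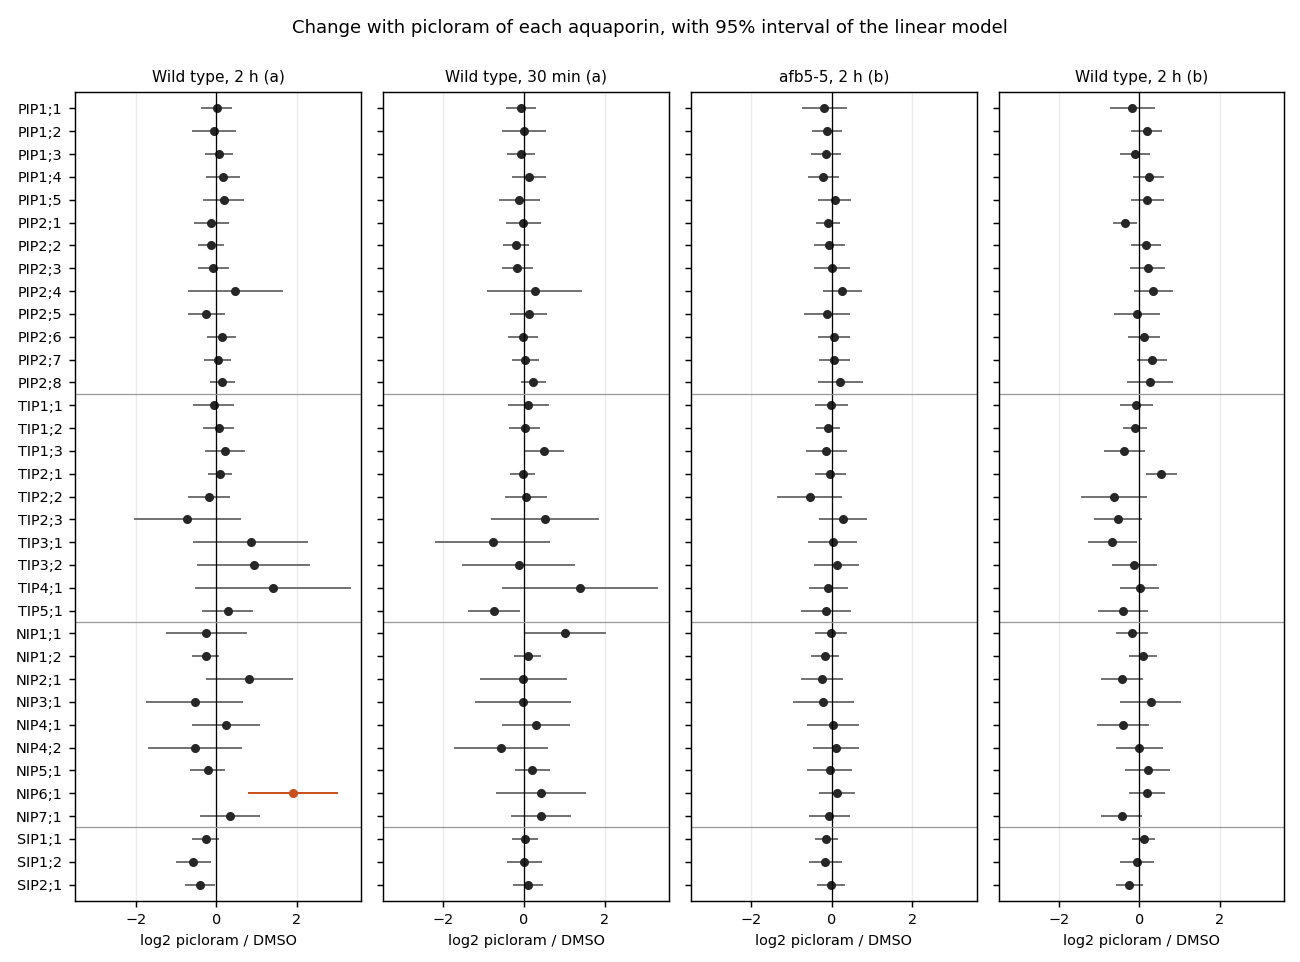
Log2 change with picloram relative to DMSO for each of the 35 aquaporins, in wild type at 2 h and at 30 min in “a” and in afb5-5 and wild type at 2 h in “b”. Points are estimates, horizontal lines are 95% intervals of the linear model, and color marks the called gene, at 1.90 at 2 h in “a”. Intervals are short for most PIPs and SIPs and long for many TIPs and NIPs of “a”.

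Among the TIPs, changes at 2 h ran from -0.72 to 1.40 in “a” and from -0.67 to 0.54 in wild type of “b”. Of the 10 TIPs 0 were called in either, where 11.4% of all transcripts were called in “a” and 2.17% in “b”. In wild type of “b” 46.5% of all transcripts were above 0, and 2 of 10 TIPs were. The higher of these was AT3G16240, the bright vacuolar channel, with 13080, 15921 and 15612 units on picloram and 12582, 9368 and 8897 on DMSO. Each picloram sample was above each DMSO sample, and the change was 0.54 (SE 0.16, unadjusted p = 0.0062, adjusted p = 0.146), which was not called.

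In afb5-5 the same vacuolar channel had 13035, 12185 and 12984 units on picloram and 14855, 11549 and 12968 on DMSO, which overlapped. The afb5-5 response minus that of wild type was -0.58 (SE 0.23, unadjusted p = 0.0277, adjusted p = 1). On DMSO afb5-5 was above wild type by 0.36 (adjusted p = 1), with overlap. In “a”, near the top of the scale, the change at 2 h was 0.09.

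Of the other bright vacuolar channels, TIP1;1 (AT2G36830) and AT3G26520 had -0.06 and 0.06 at 2 h in “a” and -0.08 and -0.11 in wild type of “b”. In “a” AT3G26520 had a median of 56965 units, where the highest value of any transcript was 65326. A 2-fold rise would have passed that value, so its change in “a” cannot exclude such a rise. In “b” TIP2;2 (AT4G17340) had 681, 892 and 1405 units on picloram and 869, 1566 and 1971 on DMSO in afb5-5. In wild type it had 598, 1093 and 970 on picloram and 961, 1446 and 1705 on DMSO. Its change was -0.55 in afb5-5 and -0.63 in wild type (adjusted p = 0.445), with overlap in both. The seed channel TIP3;1 (AT1G73190) had 178, 146 and 173 units on picloram and 382, 241 and 196 on DMSO in wild type of “b”, without overlap, a change of -0.67 (adjusted p = 0.293), against 0.85 in “a”. With the replicate block in a fit to the 2 wild-type groups of “b” alone, 3 members were called, all lower, namely AT4G17340, AT5G47450 and AT1G73190, and 16.1% of all transcripts were called, so the share of the family was below the background.

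TIP4;1 (AT2G25810), a vacuolar channel expressed mainly in roots, had the largest TIP change at 2 h in “a”, at 1.40 with an SE of 0.87 (adjusted p = 0.353). It had 3157, 3112 and 1100 units on picloram and 528, 442 and 2436 on DMSO, so that the third DMSO sample exceeded the third picloram sample. The summed signal of 6 root hair markers in the same samples was 6257, 6043 and 1148 on picloram and 533, 482 and 2231 on DMSO. Samples with a high value of the one had a high value of the other. Of 6 markers of other root tissue, 3 were above the chip median in “a”. Their summed signal at 2 h was 37462 to 40730 on picloram and 34557 to 36405 on DMSO. This sum came mostly from CASP1 and SCR, with medians of 25283 and 6892 units over the samples of “a”. The medians were 109 for IRT1, 88.6 for SMB and 80.2 for NRT2.1, so the sum says little about these. None of the 6 markers of other root tissue was called at 2 h in “a”, where 11.4% of all transcripts were.

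At 30 min AT2G25810 had 2578, 364 and 237 units on picloram and 142, 439 and 207 on DMSO, a change of 1.39 (adjusted p = 0.762). The root hair marker sums were 1417, 553 and 586 on picloram and 453, 528 and 645 on DMSO. The first picloram sample was highest in both measures. Of the 6 root hair markers 1 was called at 2 h in “a”, where 11.4% of all transcripts were. Of the same 6 markers 5 were above 0, against 49.4% of all transcripts. The called marker was the wall protein PRP3, at 1.77 (adjusted p = 0.0169, but up to 0.0739 for PRP3 without replicate 1 or 2 of either treatment). The defining root hair regulator RHD6 had 49 to 99 units over the samples of “a”, at a percentile of 16.9.

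In “b” AT2G25810 had 131 to 227 units over the 12 samples, and its change was -0.09 in afb5-5 and 0.01 in wild type. The root hair marker sums of “b” were 2474 to 4156 on picloram and 1907 to 4715 on DMSO in afb5-5, and 2326 to 3190 on picloram and 2617 to 5223 on DMSO in wild type. These came mostly from LRX1 and COBL9, with medians of 1397 and 1043 units, against 175 for EXPA7 and 95.2 for EXPA18. In the first 2 picloram samples of “a” at 2 h EXPA7 had 2771 and 2398 units and EXPA18 had 2391 and 2605. The sums of the 2 experiments are thus not the same measure. The part of root hair cells in the values of AT2G25810 in “a” was not tested.

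**Figure D5:**
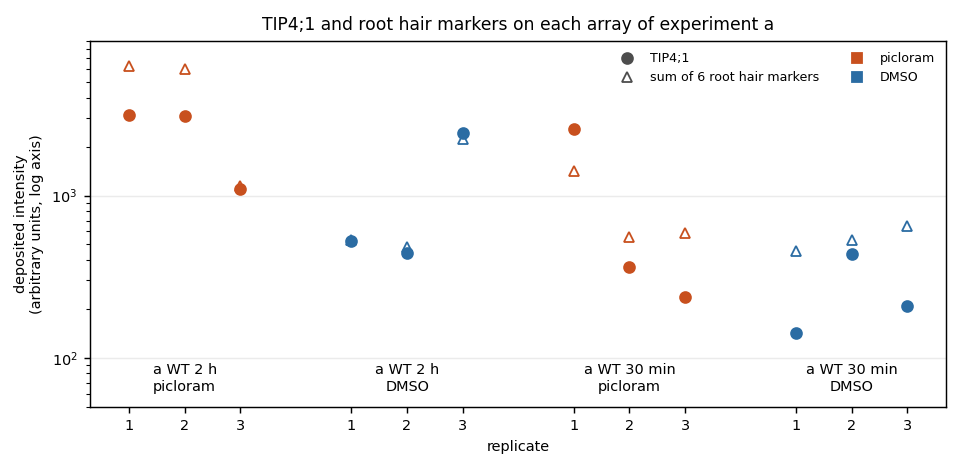
Deposited intensity (arbitrary units, log axis) of TIP4;1 (dots) and summed intensity of 6 root hair markers (triangles) in each sample of experiment “a”, with picloram left of DMSO at each time. Both measures are high in the first 2 picloram samples at 2 h, with 3157 and 3112 units of the channel and sums of 6257 and 6043, and both are raised in the third DMSO sample at 2 h.

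Among the NIPs, changes other than that of the called gene ran from -0.54 to 0.82 at 2 h in “a”, and all 9 ran from -0.44 to 0.28 in wild type of “b”. NIP2;1 (AT2G34390), a channel known from the response of roots to low oxygen, had 727, 445 and 490 units on picloram and 271, 298 and 431 on DMSO at 2 h in “a”, without overlap. Its change was 0.82 (SE 0.48, adjusted p = 0.321). In wild type of “b” it had 535, 393 and 330 on picloram and 626, 503 and 549 on DMSO, a change of -0.44 (adjusted p = 0.405). The signs were thus opposite in the 2 experiments.

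Boron transport was read further in the other genes that serve it. NIP5;1 (AT4G10380), the boric acid importer of roots, had changes of -0.22 at 2 h in “a” and 0.20 in wild type of “b”. Of 4 BOR boron exporters, 0 were called at 2 h in “a”, where 11.4% of all transcripts were. In wild type of “b”, where 2.17% of all transcripts were called, 1 exporter was. This was BOR3, with 3727, 3238 and 3388 units on picloram and 2062, 2120 and 1789 on DMSO, a change of 0.80 (SE 0.17, adjusted p = 0.0346). Its call was lost in a fit to these 2 groups alone and without any one of their 6 samples. In “a” BOR3 had a change of 0.73 (adjusted p = 0.108). BOR1 changed by 0.66 at 2 h in “a” (adjusted p = 0.0568) and by 0.08 in wild type of “b” (adjusted p = 0.909).

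All 3 SIPs were lower without overlap at 2 h in “a”, where 18.9% of all transcripts were. Of the 3, 0 were called, where 11.4% of all transcripts were. SIP1;2 (AT5G18290) had 5133, 4787 and 4603 units on picloram and 6395, 7738 and 6697 on DMSO, a change of -0.57 (SE 0.18, unadjusted p = 0.0099, adjusted p = 0.0706). SIP2;1 (AT3G56950) had 8868, 8808 and 9559 on picloram and 10892, 11418 and 12465 on DMSO, a change of -0.40 (adjusted p = 0.137). For AT3G04090 the change was -0.26 (adjusted p = 0.255). At 30 min the 3 changes were 0.01 to 0.09, and in “b” they were -0.16 to -0.02 in afb5-5 and -0.25 to 0.11 in wild type.

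Over the family, 5 members were higher without overlap at 2 h in “a”, against 17.3% of all transcripts, and 4 were lower, against 18.9%. In wild type of “b” 2 were higher, against 10.8% of all transcripts, and 2 were lower, against 10.2%. The shares of the family did not stand above these backgrounds. With the replicate block within each time point, 3 members were called at 2 h in “a”, AT1G80760 and AT2G34390 higher and AT5G18290 lower, where 18.8% of all transcripts were called. With the block in the 2 groups alone AT5G47450 was called lower in addition, where 19.4% of all transcripts were called. The shares of the family were below these backgrounds too.

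At 30 min none of the 35 was called, where 0.208% of all transcripts were, and 3 had an unadjusted p under 0.05, against 8.08%. The median change was 0.03, against -0.01 over all transcripts, and the 95% interval lay within 1 log2 unit of 0 for 22 of 35 members, against 74.2% of all transcripts. Without overlap 2 members were higher, against 5.81% of all transcripts, and 2 were lower, against 5.76%. The smallest adjusted p was 0.487, for the dim pollen gene AT3G47440. Subtracting array medians in place of quantile normalization put 27 members above 0 at 30 min, against 20. The auxin target GH3.3 was itself not called at 30 min, at 2.62 (SE 0.59, adjusted p = 0.149), though its groups did not overlap.

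NIP1;1 (AT4G19030), a channel known to let arsenite into roots, was 1 of the 3 with an unadjusted p under 0.05 at 30 min. It had 2842, 1224 and 2776 units on picloram and 788, 943 and 1741 on DMSO, which overlapped as deposited and not after normalization, and its change was 1.03 (SE 0.45, adjusted p = 0.59). At 2 h it had 2078, 1713 and 2675 on picloram and 2188, 1256 and 5650 on DMSO, a change of -0.25. Its replicates were thus as far apart as its treatments.

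Of the responses at 2 h set against those at 30 min, none was called in the family, where 0.846% of all transcripts were, and 2 members had an unadjusted p under 0.05, against 16.4%. Between DMSO samples at 2 h and at 30 min 0 members were called, against 0.356% of all transcripts, and 4 had an unadjusted p under 0.05, against 16.5%. The smallest adjusted p there was that of AT4G19030, with a difference of 1.41 (SE 0.45, adjusted p = 0.169). On DMSO 8 of the 9 NIPs were above 0 at 2 h relative to 30 min, against 47.7% of all transcripts, with a median of 0.45. The seed channels AT1G73190 and AT1G17810 had -1.53 and -1.43 (adjusted p = 0.27 and 0.287).

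In afb5-5 none of the aquaporins was called after picloram, where 0% of all transcripts were, and 0 had an unadjusted p under 0.05, against 1.03%. Changes ran from -0.55 to 0.27 with a median of -0.06. The 95% interval lay within 1 log2 unit of 0 for 34 of 35 members, against 93% of all transcripts. Without overlap 0 were higher, against 1.73% of all transcripts, and 1 was lower, against 1.75%.

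The afb5-5 response minus that of wild type was called in 0 of 35 aquaporins, where 0.102% of all transcripts were, and had an unadjusted p under 0.05 in 1, AT3G16240, against 4.09%. For 12 of the 13 PIPs this difference was below 0, with a median of -0.08, and AT3G53420 was the exception at 0.26. Over all transcripts 53.0% were above 0, and the signs of the PIPs were not tested against this share. Between afb5-5 and wild type on picloram 0 of 35 were called, against 1.24% of all transcripts, and 1 had an unadjusted p under 0.05, against 9.01%. On DMSO 0 of 35 were called, against 0%, and 1 had an unadjusted p under 0.05, against 0.911%. The differences on DMSO ran from -0.49 to 0.38, and 24 of 35 were above 0, against 49.2% of all transcripts.

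Genes that load the vacuole and the cell with solutes were listed beside the channels. Of 23 genes of potassium and turgor transport, 6 were higher and 1 was lower at 2 h in “a”, against 5.53% and 5.84% of all transcripts. In wild type of “b” 1 was higher and 0 were lower, against 1.71% and 0.458%. The potassium transporter KUP2 had 17966, 16840 and 11875 units on picloram and 4577, 4678 and 5235 on DMSO at 2 h in “a”, a change of 1.59 (adjusted p = 0.000788), and in wild type of “b” its change was 0.47 (adjusted p = 0.311). The potassium channels KAT1 and GORK, both known from guard cells, had 1.88 and 1.36 in “a” (adjusted p = 0.00117 and 0.00636), and SKOR, which loads potassium into root xylem, fell by 1.11 (adjusted p = 0.0399). The call of SKOR was lost without any one of the 6 samples at 2 h, with an adjusted p of up to 0.133. The summed signal of 4 guard cell lineage markers was 2616 to 3263 on picloram and 3218 to 4057 on DMSO at that time. Of these 4 markers 0 were called, where 11.4% of all transcripts were. In wild type of “b” KAT1 changed by -0.16 (adjusted p = 0.769), GORK by 0.32 (adjusted p = 0.619) and SKOR by -0.15 (adjusted p = 0.612). None of these channels was called there. The median change of the transport list was 0.31 in “a” and -0.11 in “b”. Of 9 genes listed as aquaporin regulators, 1 was higher and 2 were lower in “a”, and 0 were higher and 1 was lower in wild type of “b”. The shares over all transcripts were again 5.53% higher and 5.84% lower in “a”, and 1.71% and 0.458% in “b”.

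The gene of the regulator list called at 2 h in both experiments was RMA2. It is a membrane-anchored ubiquitin ligase from a small family whose member RMA1 is known to retain and degrade AT3G53420. Whether RMA2 acts on an aquaporin was not tested. In “a” RMA2 had 5001, 4203 and 5445 units on picloram and 14100, 13413 and 13728 on DMSO at 2 h. In wild type of “b” it had 1136, 1360 and 1627 on picloram and 1948, 2696 and 2635 on DMSO. The groups were apart in both, with changes of -1.53 in “a” (SE 0.20, adjusted p = 0.0013) and -0.82 in “b” (SE 0.19, adjusted p = 0.0495).

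At 30 min RMA2 had 8535, 11132 and 16020 units on picloram and 10782, 10871 and 14008 on DMSO, and its response at 2 h differed from that at 30 min by -1.53 (adjusted p = 0.0389, and 0.0592 with the replicate block). In afb5-5 it had 2204, 2251 and 2963 on picloram and 2823, 2917 and 3440 on DMSO, a change of -0.32 (adjusted p = 1), and the afb5-5 response minus that of wild type was 0.50 (adjusted p = 1). The call in “b” was lost when array medians were subtracted, in a fit to the 2 groups alone, and without any one of 5 of the 6 wild-type samples, all but DMSO replicate 1.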

How the data were processed

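The deposited values are linear probe-set intensities, 1 per transcript, which the authors made from NimbleGen scans with background correction and RMA, as their methods and the labels name it (no version given). Experiment “a” is annotated on TAIR8 and “b” on TAIR10. Array medians differed 1.72-fold in “a” and 1.03-fold in “b”, so log2 values were quantile normalized in “a” and used as deposited in “b”. No pseudocount and no filter were applied. One limma 3.58.1 fit (lmFit, eBayes; R 4.3.3) per experiment held all 12 samples and no covariates, with Benjamini-Hochberg adjustment over all transcripts, and 9 comparisons were made. The fits were tested on simulated data. Figures were drawn with Python 3.11.15, pandas 2.3.3 and matplotlib 3.10.9.

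Members and gene lists were chosen with earlier results of these data known. Values are given sample by sample for members called in any comparison or changed by at least 0.5 with the same sign at 2 h in both experiments, and outside the family for GH3.3 and list genes called in both experiments, with AFB5 given as ranges. Others with such values were chosen after the values were seen. Deviations from the group means correlated between same-numbered picloram and DMSO samples of wild type at 0.34 to 0.55 (2 h, “a”), 0.37 to 0.60 (30 min) and 0.38 to 0.67 (2 h, “b”) over transcripts, so these numbers pair the samples. The main model takes no account of these pairs, and fits with the replicate number as a block are given beside it. In afb5-5 the correlations were 0.04 to 0.18 and the numbers were not taken as pairs. Between same-numbered samples of the 2 genotypes they were 0.04 to 0.69 on DMSO and -0.70 to 0.20 on picloram. Gene names came from the list and the RefSeq table of TAIR10.1, which matched 35 of 35 loci. Sequences were not analysed here. The 3 arrays per group limit the precision. The gene of the transport list called in “b” is not reported here.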

Additional observations from a re-analysis of the deposited data

Results flagged for a closer look

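No aquaporin had a response that differed between times or genotypes past the threshold, and groups of 3 samples are too small for a test of outlying samples. Of the other genes named, KUP2 had a response to picloram at 2 h in “a” that differed from its response at 30 min by 1.62 (SE 0.26, adjusted p = 0.0277, limma contrast of the 2 responses), and RMA2 had one that differed by -1.53 (SE 0.28, adjusted p = 0.0389). At 30 min the change was -0.03 for KUP2 and -0.00 for RMA2. Neither call held with the replicate number as a block (adjusted p = 0.0518 for KUP2 and 0.0592 for RMA2) or on values as deposited (0.164 for KUP2 and 0.152 for RMA2). Without any one of most single samples the calls were also lost, with an adjusted p of up to 0.0945 for KUP2 and 0.116 for RMA2.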

How the results depend on the processing

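The main settings were set against other normalizations, a filter on the dimmest 25% of transcripts, a replicate block, fits to fewer groups, a robust fit with a variance trend, the mean over splice forms, the brightest splice form (chosen after seeing the data) and fits that each omit a replicate. At 2 h in “a” 1 aquaporin was called. The number was 3 with the replicate block within each time point, 3 with only the 2 groups in the fit, 4 with the replicate block in these 2 groups, and 2 with the robust fit, while the share of all transcripts called was 18.8%, 14.6%, 19.4% and 13.8% in these fits, against 11.4%. Omitting 1 replicate at a time gave 0 calls each time, where 4.79% to 8.83% of all transcripts were called. At 2 h in “b” 0 were called in wild type, and 3 with the replicate block in the 2 groups alone, where 16.1% of all transcripts were called, against 2.17%. No called change reversed its direction, but uncalled ones did. Omitting 1 replicate at a time, the change of NIP6;1 ran from -0.291 to 1.047 at 30 min and from -0.0575 to 0.30003 in afb5-5. Its difference between DMSO times ran from -0.0730 to 1.264, between genotypes from -0.198 to 0.03003 on picloram and -0.179 to 0.178 on DMSO, and between the responses of the genotypes from -0.238 to 0.119, and the last was 0.00513 after quantile normalization. For TIP2;3 the change ran from -0.199 to 1.010 at 30 min and from -0.0222 to 0.465 in afb5-5, and the difference between DMSO times from -0.0156 to 1.195. Signs of small changes over the family did depend on the scaling in “a”: 27 members were above 0 at 30 min with array medians subtracted, against 20, and the median difference between DMSO times was -0.01 on values as deposited, against 0.14. The replicate block changed no other count of called aquaporins. It could not be fitted within a time point or genotype for comparisons between control times or between genotypes, and TIP2;3 has no value in “b” without the dimmest transcripts. Members near background have wide intervals, so a small change there was not detectable with 3 arrays per group.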
